A study of Sus scrofa with 6 samples.

Results

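*ISL1* and *LHX4* are genes of the LIM homeobox family, and the regions described here are the differentially methylated regions (DMRs) that carry either symbol in a comparison of a white and a red pig muscle. All rows of the DMR table whose human gene symbol, or pig symbol where there was none, was *ISL1* or *LHX4* were taken. This gave 3 DMRs of 15633 in the table, 2 at *ISL1* and 1 at *LHX4*. The groups were *longissimus dorsi* muscle (LDM), the glycolytic white muscle of the back, and *psoas major* muscle (PMM), the oxidative red muscle of the loin. Each was represented by 3 libraries from female Landrace pigs 210 days old. Per the study, both muscles were taken from the same 3 animals after feed had been withdrawn before slaughter, and no label ties a library to an animal. Methylated DNA immunoprecipitation sequencing (MeDIP-seq) was used, in which an antibody pulls down fragments with methylated cytosine. Each library is represented by its read depth averaged over the CpGs of a DMR, which the authors scaled with 1 factor per library, and triplets of depths are given in the order of replicates 1, 2 and 3. Since both the methylation and the CpG content of a region raise this depth, muscles are compared at the same DMR, and where a depth is placed among those of other DMRs this describes depth and not the level of methylation.

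LIM homeodomain proteins are transcription factors that combine a DNA-binding homeodomain with a pair of LIM zinc fingers, through which they bind the adaptor LDB1 and form complexes with one another. ISL1 is best known from motor neurons, from the progenitors of the second heart field, from pancreatic islets and from the embryonic pituitary. LHX4 acts in the pituitary and, together with its relative LHX3, in motor neurons. Neither gene is a classical marker of adult muscle fibres, and expression was not analysed here.

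The table lists only regions that the authors had selected for a difference between PMM and LDM on these same libraries. The depths below are therefore a description of selected regions and are not a test of a difference. In all 3 DMRs the libraries of one muscle lay apart from those of the other, as they did in 100% of the listed DMRs. On the log2(depth + 1) scale, fitted with limma over all listed DMRs, all 3 passed the adjusted threshold of 0.05, against 99.9% of the listed DMRs. The *ISL1* DMRs were higher in PMM (2 of 2), as were 55.9% of all listed DMRs at that threshold. The *LHX4* DMR was lower in PMM (1 of 1), as were 44% of all listed DMRs. Folds below come from the log2(depth + 1) scale, so in shallow regions they are smaller than the ratio of the mean depths. Muscle was sampled as whole tissue, and a shift in the share of cell types cannot be told apart from a shift in methylation within a cell type. The labelled muscles could not be checked against marker genes, because the table holds no expression.

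The promoter of *ISL1* gained read depth in PMM from a low level in LDM. Its DMR, chr16:32560631-32560997 on Sscrofa10.2, spanned 367 bp and 11 CpGs. It was annotated to the distal part of the promoter of transcript ENSSSCT00000018387, a promoter of the high-CpG class (HCP). The depth was 4, 4.99 and 1.37 in LDM, against 15.6, 21.9 and 19.0 in PMM. Every PMM library was thus more than 3 times as deep as the deepest LDM library, and LDM replicate 3 was the lowest of all. The mean rose from 3.46 (SD 1.87, n = 3) to 18.8 (SD 3.12, n = 3), a log2 difference of 2.25 (SE 0.35) or 4.75-fold. Undoing the scaling, the LDM values rested on 44, 53 and 14 overlaps of a read with a CpG and the PMM values on 142, 207 and 201. A read lying over several CpGs is counted at each of them, so the number of reads is smaller.

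The second *ISL1* DMR lay at the other end of the gene, within 2 kb downstream, at chr16:32548341-32548499. It held 5 CpGs in 159 bp and began from a higher level. The depth was 19.0, 11 and 14.5 in LDM, against 48.2, 34.2 and 42.2 in PMM. The lowest PMM library stood well above the deepest LDM library. The mean rose from 14.8 (SD 4.02, n = 3) to 41.5 (SD 7.04, n = 3), which was a log2 difference of 1.45 (SE 0.21), or 2.72-fold. The DMRs were separated by 12.1 kb, and no DMR was listed in the gene body between them. Since the downstream DMR has the lower coordinates, the transcript runs toward lower coordinates in this build.

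The table held 478 promoter DMRs and 319 downstream DMRs, so few genes could have listed DMRs at both ends. Only 17 symbols had a promoter DMR and a downstream DMR, and 4 of these were higher in PMM at both ends. Of the 4 that were higher at both ends, the patterning gene *HOXC6* was the other, beside *ISL1*, without a DMR in its gene body. That trait was common, as 10 of the 17 symbols had none there. For 4 further symbols the promoter and downstream DMRs were all lower, and for the other 9 the directions were mixed.

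*LHX4* moved the other way. Its DMR, chr9:133694995-133695044, lay in the first intron of transcript ENSSSCT00000016925 and packed 5 CpGs into 50 bp. The depth was 13.8, 15.5 and 11.6 in LDM, against 3.64, 6.05 and 1.46 in PMM. The muscles did not overlap, and PMM replicate 3 was the lowest library. The SDs of the muscles were similar, so the spread of PMM was wide only relative to its mean. The mean fell from 13.7 (SD 1.95, n = 3) to 3.71 (SD 2.30, n = 3), a log2 difference of -1.76 (SE 0.37), or 3.38-fold lower. The PMM values rested on only 15, 26 and 7 overlaps of a read with a CpG, against 69, 75 and 54 in LDM, so the depth in PMM was the least precise of the values at these genes. With 1 library left out at a time, the *LHX4* difference ran from 2.55-fold without PMM replicate 3 to 4.32-fold without PMM replicate 2. The *ISL1* promoter ran from 3.59-fold without LDM replicate 3 to 5.71-fold without LDM replicate 2.

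**Figure D1:**
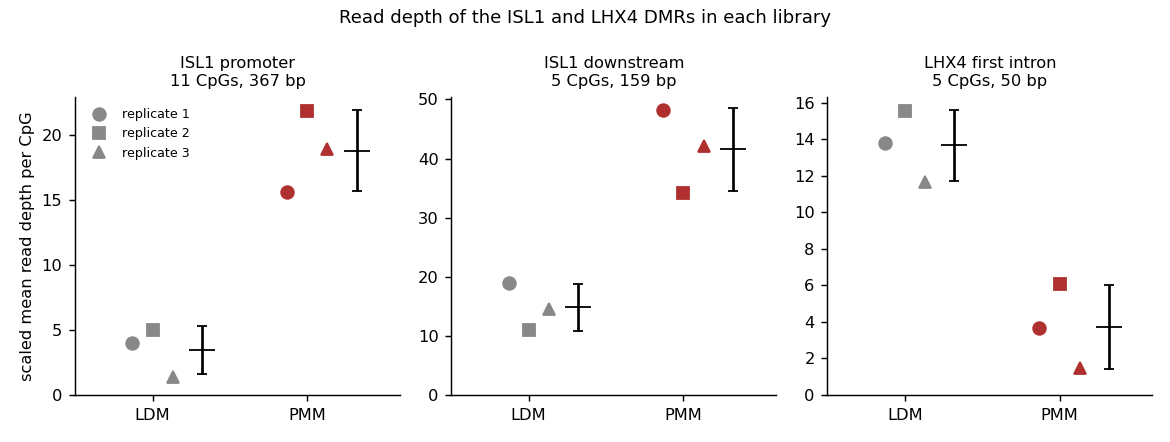
Scaled mean read depth per CpG (y axis, from 0) in the 3 LDM and 3 PMM libraries for the *ISL1* promoter, *ISL1* downstream and *LHX4* first intron DMRs, with the mean and SD of each muscle beside the points. The *ISL1* DMRs were deeper in every PMM library, from 15.6 to 21.9 in the promoter, and the *LHX4* DMR was shallower in every PMM library, from 1.46 to 6.05.

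These differences were placed among the other listed DMRs, as a description of regions chosen by the same contrast. The *ISL1* promoter had the largest fold of the 252 promoter DMRs that were higher in PMM and ranked 20 among all 8751 listed gains. Its LDM mean was near the bottom of the table, with 49 of the 15633 DMRs, or 0.313%, below it. Its PMM mean of 18.8 had 41.8% of all listed DMRs below it, but it was low for its class of CpG density, where the median was 40.5 and 13.9% of the 3910 DMRs lay below it. The downstream DMR of *ISL1* ranked 7 of 178 downstream gains and 381 of all gains. The *LHX4* loss lay nearer the middle of the table, at rank 103 of 509 losses in first introns and rank 1473 of 6882 losses in all. Its PMM mean was among the lowest of the table, with 463 DMRs, or 2.96%, below it. The authors set a minimum depth of 10 per CpG and listed only regions that differed. A region shallow in 1 muscle was thus more readily listed if the other muscle was deeper. The low LDM mean of the *ISL1* promoter and the low PMM mean of *LHX4* were ranked within that selected list. The part of this selection in the low means and in the folds was not tested.

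CpG density and direction went together over the whole table, and all 3 DMRs followed that relation. With the DMRs divided into 4 equal classes by CpGs per 100 bp, 93.9% of the 3910 DMRs in the sparsest class were higher in PMM, against 16.7% of the 3908 in the densest class. The *ISL1* promoter DMR had 3.0 CpGs per 100 bp and the downstream DMR 3.14, both in the sparsest class, which reached from 1.05 to 3.69. The *LHX4* DMR had 10.0 CpGs per 100 bp and fell in the densest class, which began at 7.78. Although the *ISL1* promoter belongs to the high-CpG class, its DMR thus lay in a CpG-poor stretch of it. Of the 92 DMRs in distal parts of HCP promoters, 46 were higher in PMM. Of the 27 among them in the sparsest class, 25 were higher. Of 308 first intron DMRs in the densest class, where *LHX4* lay, 52 were higher.

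**Figure D2:**
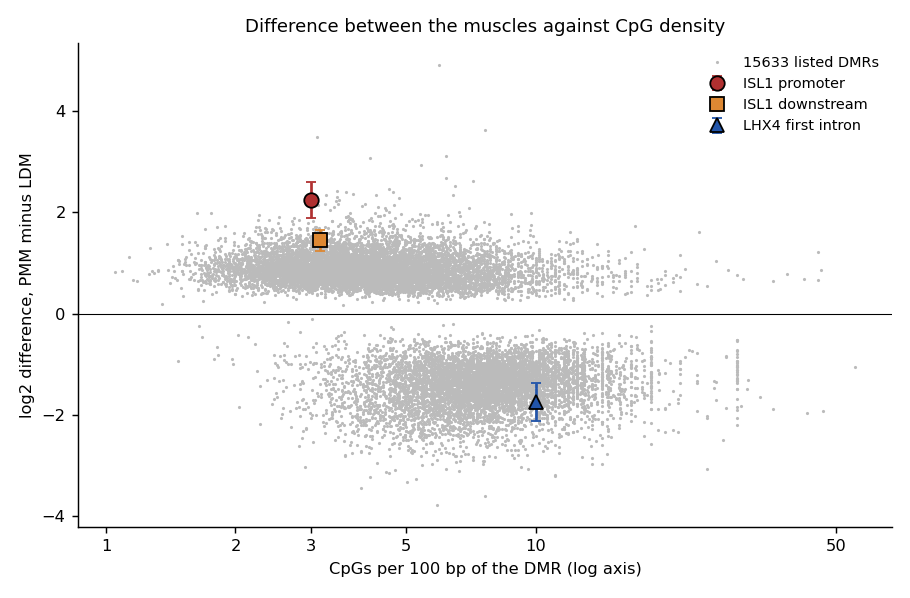
Log2 difference, PMM minus LDM, of log2(depth + 1) (y axis) against CpGs per 100 bp (x axis, log scale) for the 15633 listed DMRs (grey) and for the *ISL1* and *LHX4* DMRs (coloured, bars: SE). The *ISL1* DMRs, at 3.0 and 3.14 CpGs per 100 bp, sit with the gains of the sparse side, and the *LHX4* DMR, at 10.0, sits with the losses of the dense side.

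When a smooth trend of log2 depth on CpG density was subtracted from each library, the differences at these genes shrank. The trend was fitted to the listed DMRs alone. The mean of each library was added back, so what remains is not the plain difference between the muscles. It sets a DMR against listed DMRs of like density, with the mean difference of all listed DMRs still included. The median log2 difference was then -0.040 in the sparsest class and -0.35 in the densest. The *ISL1* promoter kept a log2 difference of 1.35 (SE 0.34), or 2.55-fold. The downstream DMR kept 0.57 (SE 0.24), and *LHX4* kept -0.86 (SE 0.37). After this step 1 of the 3 DMRs passed the threshold, the *ISL1* promoter, where 55.9% of all listed DMRs passed, 24.2% as higher and 31.7% as lower in PMM. The *ISL1* promoter then ranked 36 among the 478 promoter DMRs and 1166 among all listed DMRs, ordered from the largest gain. The downstream DMR ranked 61 of 319 downstream DMRs and 3123 of all, and *LHX4*, ordered from the largest loss, ranked 230 of 1207 first intron DMRs and 3035 of all. All 3 thus stood lower in these orders than before. Within the sparsest class alone, the *ISL1* promoter then ranked 1 of 119 promoter DMRs and 9 of 3910, and the downstream DMR ranked 157. Before the step they ranked 6 and 161 of the 3671 gains there, since the step hardly reorders DMRs of like density. *LHX4* ranked 584 of 3908 in the densest class after it. The part of CpG density in the differences at *ISL1* and *LHX4* was not tested beyond this step. A larger pseudocount of 4, which damps shallow regions, gave 3.12-fold for the *ISL1* promoter.

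**Figure D3:**
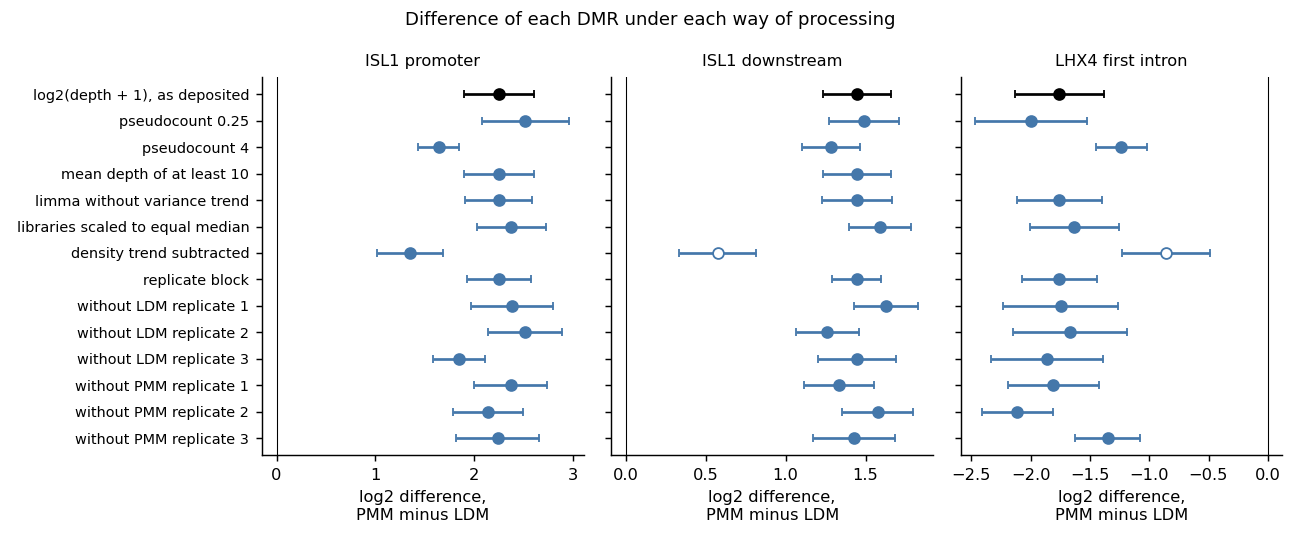
Log2 difference, PMM minus LDM (x axis, bars: SE), of the *ISL1* promoter, *ISL1* downstream and *LHX4* first intron DMRs under each way of processing (y axis), with filled points past the adjusted threshold of 0.05 and open points short of it. All values kept their direction. The lone open points are the *ISL1* downstream and *LHX4* DMRs with the density trend subtracted, at 0.57 and -0.86.

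Around *ISL1* listed DMRs were few. Apart from its own pair, none lay within 100 kb, and each member of the pair had 6 other DMRs within 1 Mb, its partner included, against a median of 18 for a listed DMR. Of the listed DMRs, 10.7% had fewer. The next DMRs formed a cluster 393.0 kb beyond the downstream DMR, in sequence annotated as intergenic, and were named after their values were seen. They were chr16:32152890-32153067, chr16:32153166-32153359 and chr16:32155185-32155319, with 7, 6 and 7 CpGs. The middle one had a depth of 1.17, 0.345 and 1.80 in LDM, against 26.9, 20.0 and 18.5 in PMM. It was close to empty in LDM and reached about the depth of the *ISL1* promoter in PMM. Its gain of 11.2-fold, with a log2 difference of 3.48 (SE 0.33), ranked 3 of all 8751 gains. From so low a base the fold depends on the pseudocount, at 18.1-fold with 0.25 and 5.04-fold with 4. The DMRs on its sides rose 4.37-fold and 3.34-fold. With the density trend subtracted, all of this cluster remained past the threshold, at 1.44, 2.60 and 1.64 on the log2 scale. The first and the middle DMR lie so close that the same fragments can reach both. No link between the cluster and *ISL1* was measured.

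On the other side of *ISL1*, the nearest DMR was intergenic and 564.3 kb from the promoter DMR, at chr16:33125292-33125417, with a 1.74-fold gain in PMM that fell short of the threshold, at a log2 difference of 0.12, when the density trend was removed. The DMR farthest from the promoter within 1 Mb, chr16:31587100-31587174, was lower in PMM, from a mean of 33.2 (SD 3.34, n = 3) to 9.85 (SD 7.75, n = 3). The protein-coding genes next to *ISL1* in the order of genes on Sscrofa11.1 were *EMB* and *PARP8* on one side and *PELO* and *ITGA1* on the other. None of these 4 genes had a listed DMR.

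*LHX4* had 1 listed DMR within 100 kb. It was intergenic, 41.5 kb away at chr9:133653260-133653537, and its depth was 53.8, 56.5 and 57.0 in LDM, against 78.0, 85.5 and 81.4 in PMM. It was thus deeper in PMM, by 1.45-fold, where *LHX4* was shallower. It held 2.16 CpGs per 100 bp, and its difference changed sign to -0.46 with the density trend subtracted. On the other side the nearest DMR was 249.7 kb away, at chr9:133944720-133944941, and was 2.46-fold higher in PMM, or 1.44-fold with that subtraction. Of the 10 DMRs within 1 Mb of *LHX4*, 7 were higher and 3 were lower in PMM, where 56% of all listed DMRs were higher. After the subtraction 5 were higher and 5 lower, of which 1 and 2 passed. Among its neighbours in gene order, *CEP350*, which encodes a centrosomal protein, had 1 listed DMR, higher in PMM, and the phosphate exporter gene *XPR1* had 1, lower in PMM. Neither passed after the subtraction, at log2 differences of 0.07 and -0.35. *QSOX1* and *ACBD6*, which flank *LHX4* directly, had none.

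**Figure D4:**
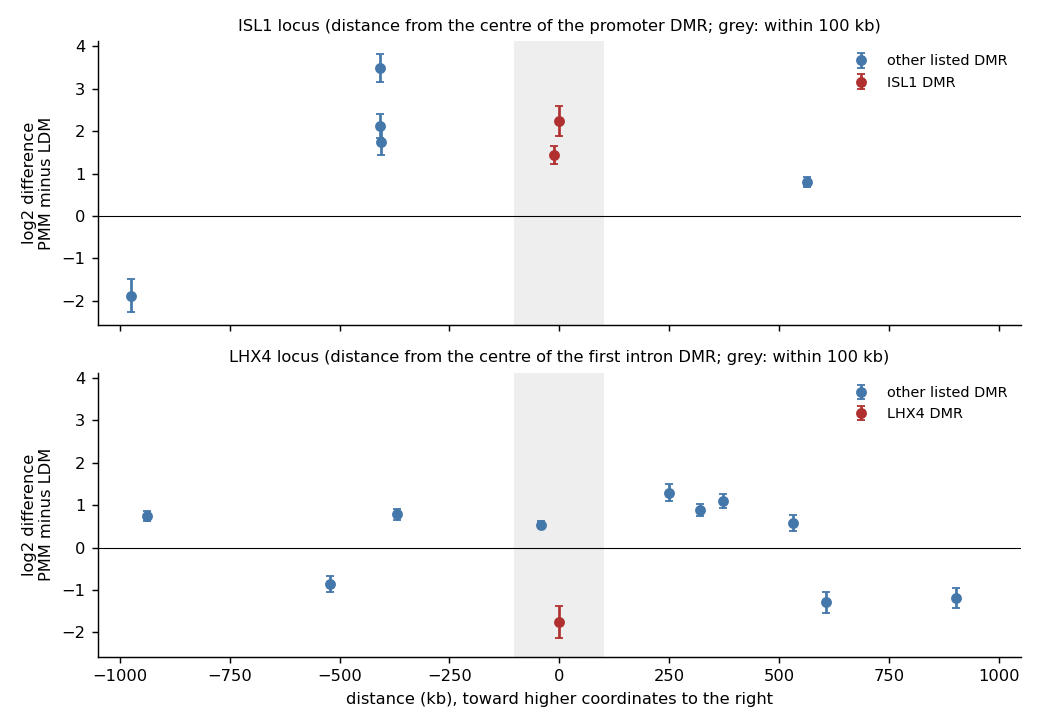
Log2 difference, PMM minus LDM (y axis, bars: SE), of every listed DMR whose centre lay within 1 Mb of the *ISL1* promoter DMR (upper) or the *LHX4* first intron DMR (lower), against the distance between centres in kb. At *ISL1* the pair of DMRs and the cluster on its left, at 2.13, 3.48 and 1.74, were higher in PMM, while at *LHX4* the loss of -1.76 had a gain of 0.54 beside it.

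Of the 12 genes of the LIM homeobox family, *ISL1* and *LHX4* were the only ones with a listed DMR. The other 10, among them *ISL2* and *LHX3*, had none under their symbols. Whether the annotation the authors used names these genes was not checked, and no share of all genes with a listed DMR was computed. Of 10 genes for LIM cofactors and LIM-only proteins, 5 held 8 DMRs, all in introns. In PMM, 7 of these 8 were higher and 1 was lower, against 55.9% higher over all listed DMRs. All passed the threshold, as did 99.9% of the table. The median log2 difference was 0.86, against 0.56 over all listed DMRs. These comparisons do not allow for CpG density. Of the 8 DMRs, 3 lay in the sparsest class, where 93.9% were higher in PMM, and 0 in the densest, where 16.7% were. The rest lay in the middle classes, where 76.1% and 37.1% were higher. The part of density in the 7 gains was not tested. *LDB1*, the adaptor of LIM homeodomain proteins, had an intron DMR with 56.0, 68.4 and 62.1 in LDM, against 86.8, 82.8 and 94.6 in PMM. This was a small difference between libraries that did not overlap, 1.41-fold. It lay in a region of 6.85 CpGs per 100 bp, in a density class where 37.1% of listed DMRs were higher in PMM. With the density trend subtracted, its log2 difference was 1.11. The related adaptor gene *LDB2* had 3 intron DMRs, 1.89-fold, 1.77-fold and 2.17-fold higher, none of which passed after that step.

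The LIM-only proteins bind LDB1 but have no homeodomain. *LMO2*, which acts in blood and endothelial development, was 1.85-fold higher in PMM, and *LMO3* was 2.11-fold higher, the latter short of the threshold once the density trend was subtracted. *LMO1* held DMRs of both directions in its first intron. The gain was 1.57-fold, while the other DMR, annotated to a CpG island shore, was 2.81-fold lower, at 20.8, 18.7 and 23.5 in LDM, against 10.7, 3.26 and 8.52 in PMM. In all, 4 of the 8 DMRs passed with the density trend subtracted, 3 higher and 1 lower, against 55.9% of all listed DMRs.

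Genes of the programmes in which *ISL1* and *LHX4* act were listed in both directions. Among motor neuron genes, 8 of 25 had DMRs, with 10 DMRs higher and 7 lower in PMM and a median log2 difference of 0.64. This was near the whole table, where 56% of DMRs were higher and the median was 0.56. The share of all genes with a listed DMR was not computed. The largest gain was in *ONECUT1*, a homeobox factor of motor neurons and liver, 2.64-fold higher (1.42-fold with the density trend subtracted). The largest loss lay in a CpG island in an intron of *EBF3*, a helix-loop-helix factor of developing neurons, 4.52-fold lower (2.44-fold with that trend subtracted). Its depth in PMM was uneven, and without PMM replicate 2 the fold was 2.80. Most of the 17 motor neuron DMRs lay in *EBF1*, *EBF2* and *EBF3*, which are genes of 1 family. With the density trend subtracted, 12 of the 17 passed, against 55.9% of all listed DMRs. Of these 12, 5 were higher and 7 lower, and 2 had turned sign. The largest gain and loss of the list then lay in other genes of the EBF family, at 1.87 on the log2 scale in *EBF1* and -1.93 in *EBF2*. Among second heart field genes, 3 of 22 had a DMR each. *TBX5*, a T-box factor of the heart and forelimb, rose in its first intron from a mean depth of 1.58 (SD 0.948, n = 3) to 11.1 (SD 1.62, n = 3). On the log2(depth + 1) scale this was 4.86-fold, and 2.72-fold with a pseudocount of 4. The growth factor gene *BMP7* was 3.25-fold lower (1.83-fold after the subtraction) and *GATA6*, a zinc finger factor of heart and endoderm, was 1.61-fold higher, and all 3 passed with the density trend subtracted.

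Of 16 islet genes, the incretin receptor *GLP1R* alone had a DMR, 1.62-fold higher. It missed the threshold once the density trend was subtracted. Of 15 genes marking nerve and Schwann cells, the neuregulin receptor *ERBB3* alone was listed, with intron DMRs that were 2.78-fold and 2.26-fold lower, or 1.44-fold and 1.46-fold after the subtraction. They lie side by side, at chr5:23078776-23078823 and chr5:23078829-23078929, so the same fragments can reach both. The part of nerve tissue in the *ISL1* and *LHX4* differences was not tested.

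**Figure D5:**
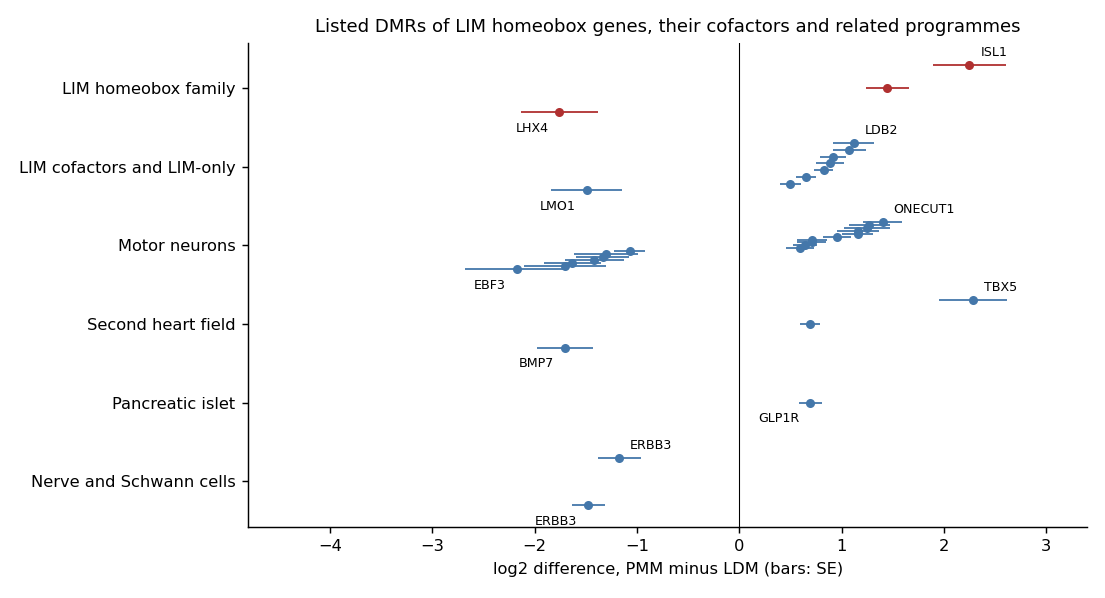
Log2 difference, PMM minus LDM (x axis, bars: SE), of each listed DMR of the LIM homeobox family, the LIM cofactors and the related gene lists (y axis), with the largest gain and loss of a list named. The LIM cofactors lie mostly to the right of 0, at a median of 0.86. Of their 8 DMRs, 3 were in the sparsest class of CpG density and 0 in the densest.

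The depth patterns of the 3 DMRs were set beside those of 5701 other promoter and gene body DMRs with a symbol, by the Euclidean distance of log2(depth + 1) over the 6 libraries. Nearest to the *ISL1* promoter were DMRs in the hyaluronan synthase gene *HAS2* (distance 0.778), the cytoskeletal linker gene *MACF1* (0.874), *TOX3* (0.889), the mitochondrial carbonic anhydrase gene *CA5B* (0.893) and *DNHD1* (0.980). Nearest to the downstream DMR were *ARHGEF11* (0.410), the potassium channel gene *KCNN3* (0.603), *RHOT1* (0.604), *PPEF1* (0.604) and *SRA1* (0.612). Nearest to *LHX4* were the cardiac myosin-binding protein gene *MYBPC3* (0.660), the mitochondrial thiolase gene *ACAT1* (0.694), *EMC10* (0.730), *SH3BP2* (0.739) and *TRAF5* (0.753). The *ISL1* promoter had no neighbour as near as the closest one of the downstream DMR. None of these 15 genes is a LIM cofactor, and only 8 of the 5701 candidates were cofactor DMRs. The LIM homeobox family could not appear, since its only listed DMRs were those being compared.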

How the data were processed

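MeDIP-seq libraries of 3 LDM and 3 PMM samples were grouped by sample title, since the source name reads *longissimus dorsi* throughout. Per the study's methods, the authors aligned reads with SOAP2 to Sscrofa 10.2, allowing up to 4 mismatches, kept multiply mapped reads once, dropped CpGs under a read depth of 10, tested each CpG between the muscles and joined differing CpGs into DMRs of at least 5 CpGs. The deposited values are a coverage signal, the mean read depth per CpG in each library times 1 factor. Times the number of CpGs, 100% of values were whole multiples of a step from 1 to 1.21 (tolerance 0.1 steps), so relative depth differed little. Total read numbers were not used here, and depth limits precision most in shallow regions. The authors' columns of mean depths, p-values and false discovery rates were not used. The flag for island shores reads yes in 18174 of 18176 rows and was replaced by the annotation columns.

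Median depths over all DMRs ran from 26.2 to 28.0 in LDM and from 23.8 to 25.4 in PMM. Nothing in the labels says which libraries came from separate animals, although the study describes 3 pigs, so errors measure the spread between libraries. The log2(depth + 1) values were fitted by limma (version 3.58.1, R version 4.3.3, trend in the variance, Benjamini-Hochberg adjustment over 15633 DMRs), a script tested on simulated data. A fold on this scale understates changes of shallow regions. The density trend was a natural spline with 5 degrees of freedom on log2 CpG density. It was subtracted from each library, and the mean of the library was added back. Members and lists were chosen with earlier results of these data known, and no set was tested. A further list chosen with them is not reported here. Named were all *ISL1* and *LHX4* DMRs, DMRs within 100 kb and the nearest beyond, LIM cofactors, the largest gain and loss of other lists, and the 5 nearest depth patterns of each DMR. *HOXC6*, *GATA6*, *EBF1*, *EBF2*, the genes flanking *ISL1* and *LHX4*, the remaining DMR of *ERBB3*, and the cluster and the far DMR at the *ISL1* locus were added after their values were seen. Gene order came from RefSeq on Sscrofa11.1, whose coordinates were not used.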

Additional observations from a re-analysis of the deposited data

How the results depend on the processing

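The differences of the *ISL1* promoter, *ISL1* downstream and *LHX4* DMRs kept their direction under every alternative that gave a value. With the density trend subtracted, the *ISL1* downstream DMR (0.57, adjusted p of limma 0.0686) and *LHX4* (-0.86, adjusted p of limma 0.0729) no longer passed, 1 of the 3 DMRs and 8735 of all listed DMRs did, and 43.4% of the calls were higher in PMM in place of 56.0%. Under the other alternatives, the adjusted p stayed below the threshold. With this subtraction, 22 of the 34 DMRs of the gene lists passed, and the *LHX4* neighbour 41.5 kb away reversed to -0.46. Of 535 values of 42 other named DMRs, 523 kept their direction and side of the threshold, and the 11 that did not pass all came from this subtraction. It moved the median log2 difference of all DMRs by -0.66, and scaling the libraries to equal medians moved it by 0.15, with 2.38 for the *ISL1* promoter. Leaving out each library gave log2 differences from 1.85 to 2.51 for the *ISL1* promoter, 1.26 to 1.63 downstream and -2.11 to -1.35 for *LHX4*, with 3 of 3 DMRs past the threshold and 15589 to 15604 in all. A minimum mean depth of 10 left out *LHX4*, which therefore has no value there. Deviations of libraries with the same replicate number correlated at 0.0377, 0.240 and 0.0185. LDM replicates 1 and 2 correlated best with the PMM library of their own number, and LDM replicate 3 with PMM replicate 1, at 0.181. These values did not settle whether the numbers are pairs, and no label gives pairs, so none were taken in the main fit. With the replicate number as a block, the differences were 2.25 (SE 0.32), 1.45 (SE 0.15) and -1.76 (SE 0.32), and 15606 DMRs passed. *LHX4* in PMM, with 7 to 26 overlaps of a read with a CpG, is limited most by depth.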
